A study of Mus musculus with 10 samples.

Results

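The regions described here are places in the mouse genome where Dlx2 was enriched in the basal ganglia and in the olfactory bulb at embryonic day 16 (E16) and where none of the other 3 libraries of the study gave a called region. They were chosen by pooling the 5 deposited Dlx2 peak lists on chromosomes 1 to 19 and X, merging regions that overlapped by at least 1 bp, and keeping the merged regions to which both E16 lists, of basal ganglia and of bulb, contributed and no other list did. This left 615 of 18606 merged regions (3.31%), which are 4.32% of the merged regions with a basal ganglia peak (95% exact binomial interval 3.99 to 4.67) and 37.1% of those with an E16 bulb peak (34.8 to 39.5). With each list cut to its strongest regions, as many as the shortest list holds, 89 such regions were left. Intervals cover counting error only, and no region-to-region test is given, since regions of 1 library are not replicates.

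Dlx2 binding was profiled by ChIP-seq, in which DNA bound by a protein in fixed chromatin is pulled down with an antibody and sequenced. The 5 immunoprecipitated libraries were 3 of E16 (basal ganglia, cortex, olfactory bulb) and 2 of postnatal day 3 (P3; cortex, olfactory bulb), with 1 library per tissue and age. All were made with an antibody against Dlx2, and the 5 input libraries were not analysed here. The labels give no strain, genotype or sex and do not say how many animals a library pools. With no replicate and no known read depth, a difference between lists has no error estimate, and a place without a called region is one that did not pass the authors' threshold there. Peaks of the basal ganglia list and of the E16 bulb list are named after different patterns, but the labels give no library batch. With 1 library per tissue and age, any batch difference could not be told apart from tissue.

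Dlx2 is a homeodomain transcription factor of the progenitors and young neurons of the ganglionic eminences, the embryonic source of the GABAergic (inhibitory) neurons of the striatum, cortex and olfactory bulb. Bulb interneurons are born largely in the lateral ganglionic eminence and its later derivative, the subventricular zone, and reach the bulb by tangential migration, so the embryonic basal ganglia and the bulb hold earlier and later cells of a shared lineage. Dlx proteins recognise DNA through a homeodomain that prefers sites with the core TAATT, and they bind promoters as well as distant enhancers.

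The promoters with a Dlx2 summit are shown first, because they are the places where a called region of this kind can be read next to a known transcription start. The RefSeq promoter table (build GRCm38.p6, the same as the mm10 of the files) holds 32619 windows on these chromosomes, each from 250 bases before to 50 bases after a start, and it matched 17274 of 21631 protein-coding genes. Only 11 windows held a summit of the 615 regions in either list, and 6 of them belong to protein-coding genes. A region with its summit 0.064 kb outside Dlx5 was in no window, so the window and motif counts leave it out. The 250 bases before the start are printed for 5 of the 11 windows, 5′ to 3′ along the gene, with TAATT and its reverse complement AATTA in capitals. They were picked after their values were seen, the first 3 for holding the core and the last 2 for lacking it at protein-coding genes.

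Msx2 (chr13:53472781-53473030, minus strand): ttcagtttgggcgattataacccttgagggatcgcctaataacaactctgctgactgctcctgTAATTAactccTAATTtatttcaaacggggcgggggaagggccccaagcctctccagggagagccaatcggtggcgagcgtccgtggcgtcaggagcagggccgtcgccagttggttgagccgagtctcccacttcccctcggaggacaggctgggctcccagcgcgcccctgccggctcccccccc

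Gm31495 (chr16:78154941-78155190, minus strand): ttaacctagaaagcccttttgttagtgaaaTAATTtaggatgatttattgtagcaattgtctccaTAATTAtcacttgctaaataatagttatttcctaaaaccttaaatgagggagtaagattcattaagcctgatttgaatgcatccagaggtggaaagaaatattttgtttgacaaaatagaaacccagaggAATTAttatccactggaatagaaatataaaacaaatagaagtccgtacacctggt

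Alkbh5 (chr11:60537433-60537682, plus strand): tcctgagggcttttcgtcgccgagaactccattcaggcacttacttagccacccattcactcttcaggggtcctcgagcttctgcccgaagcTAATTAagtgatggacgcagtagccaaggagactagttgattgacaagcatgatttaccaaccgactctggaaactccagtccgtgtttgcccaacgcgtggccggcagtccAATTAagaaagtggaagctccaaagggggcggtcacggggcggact

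Arid1a (chr4:133756770-133757019, minus strand): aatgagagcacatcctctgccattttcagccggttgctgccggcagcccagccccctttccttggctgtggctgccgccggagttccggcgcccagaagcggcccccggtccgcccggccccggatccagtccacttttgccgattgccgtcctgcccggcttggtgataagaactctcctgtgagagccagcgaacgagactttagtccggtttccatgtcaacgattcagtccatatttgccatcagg

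Sox4 (chr13:28953700-28953949, minus strand): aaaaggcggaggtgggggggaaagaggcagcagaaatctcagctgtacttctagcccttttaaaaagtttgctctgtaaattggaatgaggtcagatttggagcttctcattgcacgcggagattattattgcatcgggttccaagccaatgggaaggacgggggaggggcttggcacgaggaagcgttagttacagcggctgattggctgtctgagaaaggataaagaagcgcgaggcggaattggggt

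The promoter of Msx2, a homeobox gene, carried the strongest of these regions. Its fold enrichment, the deposited measure of how far the summit rises over local background, was 13.3 in the basal ganglia and 11.0 in the bulb, the highest bulb value of all 615 regions. The summits lay 214 bases before the start in the basal ganglia and 34 bp nearer to it in the bulb, and the TAATTA of the printed sequence begins 187 bases before it, with a further TAATT at 176. At the start of Gm31495, a gene with no protein product in the table, the fold enrichment was 5.47 and 6.48 and the summits lay 173 and 120 bases before the start, with a TAATTA at 185. Alkbh5, which encodes an RNA demethylase, had 5.27 and 2.95, with the basal ganglia summit 169 bases before the start, near a TAATTA at 158, and the bulb summit 29 bases after the start. Its bulb call was weak, with a −log10 q (the significance of the call) of 2.69, against a median of 9.55 and a minimum of 1.81 in the bulb list. These 3 TAATTA matches lay at most 30 bases from the basal ganglia summit, in windows picked for holding the core. Other matches of the core lay farther away, at 125 bases in Alkbh5 and at 45 and 120 in Gm31495, and at 92 in the window of Gm34385, the only other one with a basal ganglia summit and the core.

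The printed sequences of Arid1a, which encodes a chromatin remodelling subunit, and Sox4, a transcription factor gene of young neurons, hold no TAATT on either strand. Arid1a had 6.08 and 5.12, with summits 20 and 28 bases before the start. Sox4 had 5.17 and 3.08, with its summits 249 bp apart, on either side of the start. Its bulb call was weak too, with a −log10 q of 3.03. Of the 10 windows with a basal ganglia summit, 4 held TAATT on either strand (40%, 12.2 to 73.8), against 27% of all windows of that length and 42.8% (37.2 to 48.5) of the 311 windows with a summit of a basal ganglia-only region. TAATTA was in 3 of the 10 (30%, 6.67 to 65.2) in 5.25% of all windows and in 10.9% (7.69 to 14.9) of the basal ganglia-only windows. TAATTG, which also contains TAATT, was in 1 of 10 and in 8.02% of all. CAGCTG, an E-box read by basic helix-loop-helix factors, was in 5 of 10 (50%, 18.7 to 81.3), in 16.4% of all, in 18.0% (13.9 to 22.7) of the basal ganglia-only windows and in 32.1% (22.2 to 43.4) of the 81 windows of regions shared by basal ganglia and cortex alone. GGGCGG was in 3 of 10 and 35.9% of all, while TGACAG (18.9% of all) and CACGTG (7.2% of all) were in none, which allows a share of up to 30.8% by the exact interval. With 10 windows, the interval for TAATT includes the share of all windows, as do those for TAATTG and GGGCGG, and the intervals for TAATTA and CAGCTG overlap those of the basal ganglia-only windows. A match is a description of the letters and not a mapped binding site.

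Gene ends held few of the regions. Of the 615 basal ganglia summits, 50 (8.13%, 6.09 to 10.6) lay within 1 kb of either end of an annotated gene, 282 (45.9%, 41.9 to 49.9) elsewhere in a gene, and 283 (46.02%, 42.02 to 50.05) outside genes. Regions found only in the E16 basal ganglia list had 28.4% outside genes (27.5 to 29.4) and 13.8% at an end (13.1 to 14.5). Regions shared by basal ganglia and cortex at E16, and by no other list, had 4.11% outside (3.45 to 4.86). The shares were 41.05% outside (35.3 to 47.01) where the P3 bulb list held the region as well, and 40% (34.5 to 45.7) for regions of the E16 bulb list alone. For the share outside genes, the interval of the regions shared by basal ganglia and bulb therefore overlapped those of both bulb groups. It lay apart from the basal ganglia-only and the cortex-sharing groups. Against protein-coding genes alone, 3.25% (2.0 to 4.98) lay within 1 kb of an end. This was 2.11% (0.776 to 4.53) where the P3 bulb list held the region as well. For the E16 bulb list alone, placed by its bulb summits, it was 9.18% (6.19 to 13.0), an interval apart from that of the 615. The intervals of the basal ganglia-only group (8.63%, 8.07 to 9.21) and the cortex-sharing group (19.2%, 17.9 to 20.7) lay apart from it too. With all annotated genes, the share at an end for the bulb list alone was 13.1% (9.54 to 17.4), which overlapped that of the 615. These groups were set by called status and were not tested against each other.

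**Figure D1:**
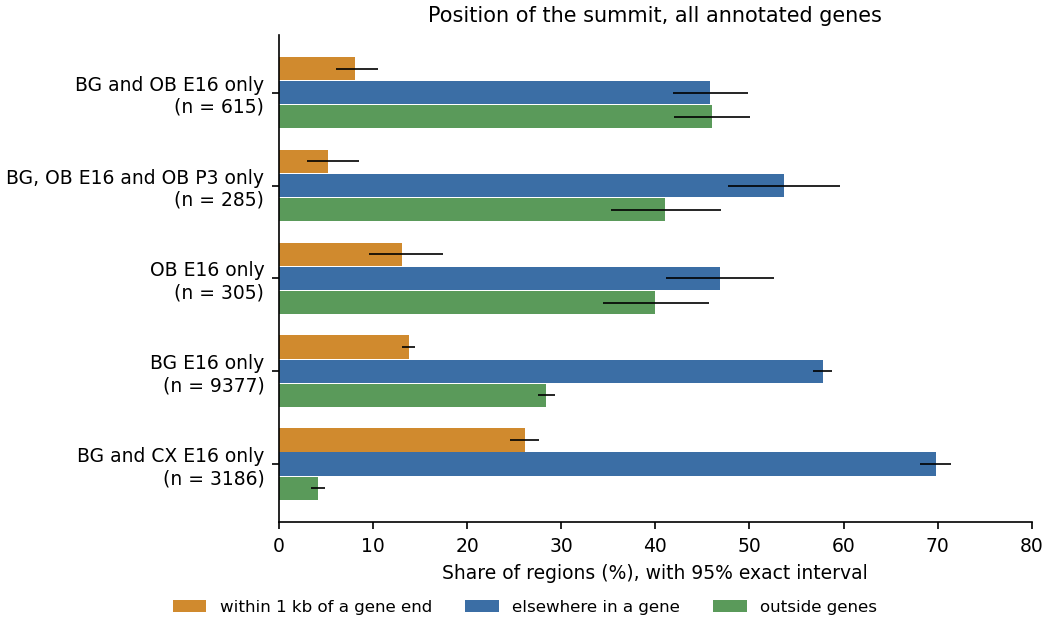
Share of summits (horizontal axis, %, bars with 95% exact intervals) within 1 kb of a gene end, elsewhere in a gene and outside genes, for 5 groups of merged regions (BG basal ganglia, OB olfactory bulb, CX cortex; n regions beside each). The 615 regions of the top group had 46.02% outside genes, and those shared by basal ganglia and cortex at the bottom had 4.11%.

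Against protein-coding genes alone, 372 of the 615 regions lay outside a gene body, at a median of 104 kb from the nearest gene end (lower and upper quartile 29.7 and 265 kb). Of all 615, 188 (30.6%, 26.9 to 34.4) were more than 100 kb away and 36 (5.85%, 4.13 to 8.01) more than 500 kb. In the basal ganglia-only group the share beyond 100 kb was 18.7% (17.9 to 19.5), and where the P3 bulb list shared the region it was 27.4% (22.3 to 32.9). The most remote region lay 1630 kb from Acvr2a (chromosome 2, 47184258 to 47184730), between that activin receptor gene and Zeb2, with 3.78 in the basal ganglia and 5.41 in the bulb. None of the 615 summits lay within 1 kb of a small nuclear, small nucleolar, transfer or ribosomal RNA gene, which allows a share of up to 0.488% if 3 regions are taken as the limit of a count of 0, and up to 0.598% by the exact interval.

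The enrichment of these regions is a description, since passing the call in both lists chose them. In the basal ganglia the fold enrichment ran from 2.57 to 24.8 with a median of 7.43, and in the bulb from 2.63 to 11.0 with a median of 4.97. In the basal ganglia list 509 of 615 (82.8%) were above the list's median of 4.55. In the bulb list 271 (44.1%) were above its median of 5.25. They thus came from the upper part of the long basal ganglia list and from the middle and lower part of the short bulb list. With the bulb list ranked on −log10 q, they were 91 of the strongest 416 regions (21.9%), 167 of the next 417 (40.05%), 188 of the next 416 (45.2%) and 170 of the weakest 417 (40.8%). Regions shared with the P3 bulb as well had 36.3%, 17.7%, 10.1% and 5.28% of the same 4 sets. Of the 100 strongest bulb regions 4 belonged to them, and of the 100 strongest basal ganglia regions 1 did. The P3 bulb list is the shortest of the 5, and the part of its length in this pattern was not tested.

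**Figure D2:**
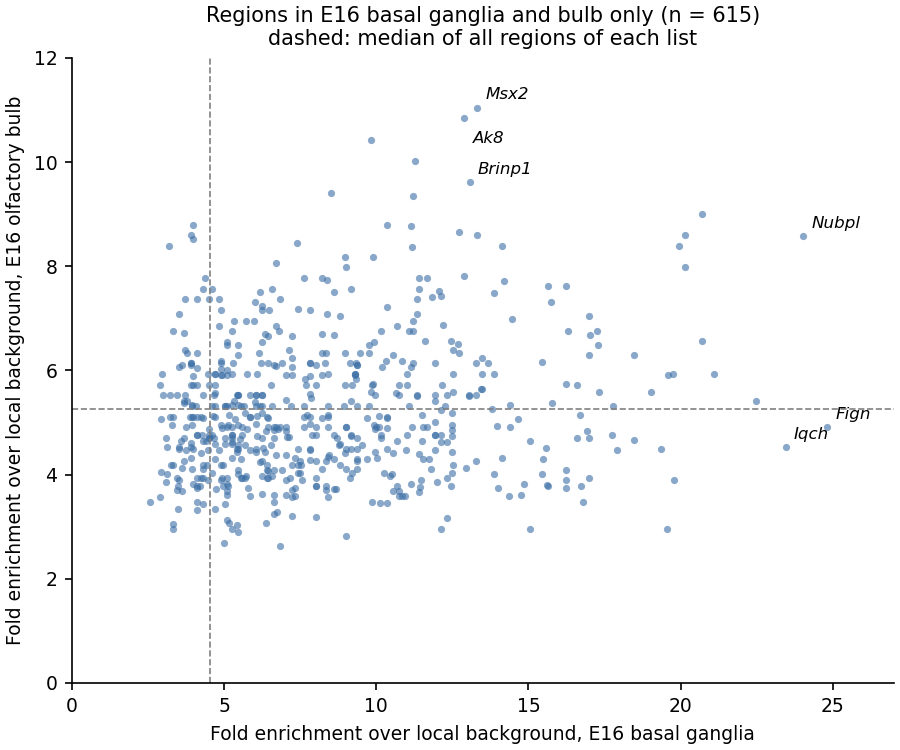
Fold enrichment of the 615 regions in the E16 basal ganglia list (horizontal axis) and in the E16 olfactory bulb list (vertical axis), each point 1 region and the dashed lines the median of all regions of each list (4.55 and 5.25). Most points lie right of the vertical line and spread around the horizontal one, and the Msx2 promoter is the highest.

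Across the 615 regions Spearman's rho between the fold enrichment in both tissues was 0.13, given without a p because the points share 2 libraries and a selection on both values. The strongest basal ganglia regions were near Fign (24.8 in the basal ganglia, 4.91 in the bulb), within Nubpl (24.0 and 8.57), within Iqch (23.4 and 4.53), near Sox11 (22.5 and 5.41) and near Ado (21.1 and 5.93). The strongest bulb regions were those at Msx2, within Ak8 (12.9 and 10.8), within the zinc finger gene Zfp521 (9.84 and 10.4), near 1700016C15Rik (11.3 and 10.02) and near Brinp1 (13.1 and 9.61). These 10 regions were all different.

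The summits of both tissues lay close together. The rule asked for an overlap of at least 1 bp, and the median distance between the basal ganglia and bulb summits was 43 bp (quartiles 20 and 81). Overlap and region width limit this distance and the nesting given below beforehand, and no expected value was computed. Of the 615, 350 (56.9%, 52.9 to 60.9) were within 50 bp of each other, 497 (80.8%, 77.5 to 83.9) within 100 bp and 578 (94.0%, 91.8 to 95.7) within 200 bp. The shorter of both regions lay wholly inside the longer in 441 cases (71.7%, 68.0 to 75.2), and the basal ganglia region was the wider in 526 (85.5%, 82.5 to 88.2), with a median of 593 bp against 400 bp. Where the P3 bulb shared the region, the median distance was 31 bp and 88.8% (84.5 to 92.2) were within 100 bp. All but 2 of the 615 were built from 1 region of each list.

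**Figure D3:**
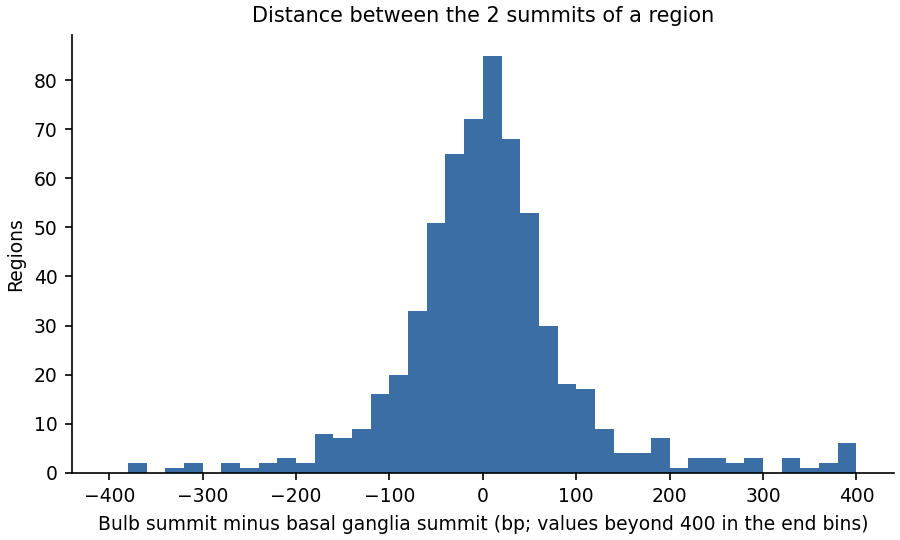
Histogram of the bulb summit position minus the basal ganglia summit position (horizontal axis, bp, in 20 bp bins) for the 615 regions (vertical axis, number of regions). The distances centre on 0, and 80.8% lie within 100 bp.

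The overlap rule decided few regions. The smallest overlaps inside it were 3 bp at Prr14, 26 bp at Slx4ip and 108 bp near Prl5a1. Just outside it, a basal ganglia-only and a bulb-only region were separated by 77 bp near Mycn (6.15 and 3.76) and by 538 bp at Ttc28. The largest overlaps were 911 bp at Peli2, 877 bp near Cdca7l and 839 bp at Msra. The rule had removed every region that overlapped another list, so counts of nearby regions are low in part by construction. They were not made for any other group of regions. An E16 cortex region lay within 500 bp of 5 of the 615, the nearest at 122 bp within Notch1, a P3 cortex region of 1, and a P3 bulb region of 0, which allows a share of up to 0.488% by 3 regions and 0.598% by the exact interval.

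The 15 regions with the lowest summed rank in both lists had a fold enrichment of 13.1 to 24.0 in the basal ganglia and 5.90 to 11.0 in the bulb, with summits 1 to 104 bp apart. Of these, 7 lay within a protein-coding gene and 8 outside, 6 of them more than 100 kb away. The leading region was in Nubpl, which encodes a mitochondrial assembly factor (chromosome 12, 52138127 to 52139024). Those in genes also included Foxp4, a forkhead factor gene (19.9 and 8.39), Myo3b (20.1 and 7.98), the receptor phosphatase gene Ptprd (20.7 and 6.56), Tox (19.6 and 5.90), Klf7, a Krüppel-like factor gene of neurons (16.3 and 6.75), and the doublecortin-like kinase gene Dclk2 (17.2 and 6.75). The remote ones included regions 396 kb from Prkd1 (20.7 and 9.0), 704 kb from Brinp1, 198 kb from Robo1 (17.0 and 7.05), 112 kb from Lpp (17.03 and 6.67), and 958 kb from the kainate receptor gene Grik2 (14.1 and 8.38). The region 55.7 kb from Nudt4 had 20.1 and 8.59, and its summits in both libraries were 1 bp apart.

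By gene, 264 of 21631 protein-coding genes (1.22%) had a summit of these regions in the gene body extended by 10 kb on each side. This share is the background for the lists below, which were drawn up with results of these data known and are described by counts alone. The 264 genes were long, with a median of 171 kb against 17.3 kb for all protein-coding genes and 27.2 kb for the 5504 other genes at a basal ganglia region. A long gene collects more summits, and the part of length in the counts was not tested. Over the 13 lists of neuronal and developmental genes, 33 of 237 genes had such a region, and over the 6 lists of other cell types and ubiquitous genes, 1 of 54. The rule needs a basal ganglia region, and the lists differed in how many genes had any. In the neuronal lists this ran from 4 of 15 (cortical interneuron subtypes) to 34 of 36 (GABAergic lineage factors). It was 26 of 29 for guidance, 22 of 25 for adhesion and 17 of 30 for receptor genes. In the other lists it ran from 1 of 8 to 8 of 14. The part of this in the counts was not tested. The 45 regions at the 33 neuronal-list genes had 3.08 to 18.5 in the basal ganglia (median 8.31) and 3.08 to 7.57 in the bulb (median 5.11). Of the 45, 40 lay inside the gene, but a region was counted at a gene only within 10 kb of its body. Of all 615 regions, 39.5% lay within a protein-coding gene.

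Among 36 transcription factors of the GABAergic lineage, 7 held such a region. Meis1, a TALE homeobox gene of the lateral ganglionic eminence, had 18.5 in the basal ganglia and 6.30 in the bulb. Zfhx4 had 14.4 and 3.59. Its relative Zfhx3 had 8.61 and 3.72. Pbx3, another TALE homeobox gene, held 2 regions, with 14.4 and 4.92 and with 10.7 and 4.64, whose basal ganglia summits were 4.22 kb apart. Npas3, a basic helix-loop-helix gene, held 2, with 9.97 and 4.87 and with 11.1 and 3.81. Foxp2, a forkhead gene of striatal neurons, held 2, with 8.21 and 6.34 and with 11.7 and 4.30. At Meis2 the region lay 0.336 kb outside the gene, with 7.34 and 3.59. All 10 regions were above the median of the basal ganglia list, and 2 of the 10, at Meis1 and Foxp2, were above that of the bulb list. Of all 615, 82.8% and 44.1% were above these medians.

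In the Dlx family of 6, Dlx5 had a region with its summit 0.064 kb outside the gene (chromosome 6, 6881610 to 6882443), with 6.57 in the basal ganglia and 7.57 in the bulb and summits 16 bp apart. Slc32a1, the vesicular GABA transporter gene, had none within 10 kb, and one 50.3 kb away with 7.85 and 5.47. Cxcl14, the chemokine gene named by the study, had none.

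Of the 14 bulb interneuron genes and the 15 cortical interneuron subtype genes, 2 and 1 had such a region, each just outside the gene. Th, which encodes tyrosine hydroxylase, the first enzyme of dopamine synthesis in bulb interneurons, had a region 3.14 kb before its start (12.5 and 5.93), with summits 1 bp apart. Scgn, the gene of the calcium sensor secretagogin, had a region 3.43 kb beyond its far end (6.90 and 6.14). Htr3a, the serotonin receptor gene of a class of cortical interneurons, had a region 3.18 kb outside (13.3 and 6.14). None of the 15 striatal projection neuron genes had one within 10 kb. By comparison, 10 of 14, 4 of 15 and 7 of 15 genes of these lists had some basal ganglia region there.

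Of 29 genes for guidance receptors and ligands, which steer growing axons and migrating neurons, 6 were reached, all with regions inside the gene, from 18.0 kb (Plxna2) to 391.9 kb (Robo1) from its nearest end. The Slit receptor genes had 5.08 and 5.91 and then 3.08 and 4.70 at Robo1, and 8.79 and 4.17 at Robo2. The netrin receptor gene Unc5c had 8.31 and 6.14, and 5.31 and 6.14. Plxna2, a semaphorin co-receptor gene, had 11.3 and 5.51, and the ephrin receptor genes Epha4 and Ephb1 had 5.28 and 4.76 and 6.90 and 4.09. Of 18 migration genes, Nrg1, the neuregulin gene, had 9.33 and 6.14.

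Of 25 synaptic adhesion genes, 5 were reached, and their regions were again inside the genes. Lsamp, a cell adhesion gene of the limbic system, held 4. Its relatives Ntm and Opcml held 2 (5.60 and 4.76, 6.24 and 3.98) and 1 (13.4 and 5.65). Nrxn3, a neurexin gene, had 12.5 and 6.56, with summits 5 bp apart, and Tenm4 had 8.02 and 3.77. Among 30 genes for GABA and glutamate receptors, those reached included Grik3 (16.7 and 5.13), Grid1 (8.40 and 5.11) and Grm7 (5.35 and 5.06), all of glutamate receptor families. The median gene length was 809 kb in the adhesion list and 349 kb in the receptor list.

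Of 15 Notch and neurogenesis genes, Notch1 (11.8 and 4.11) and Sox4 were. Of 19 genes of the cortical glutamatergic lineage, Cux1 (10.4 and 5.11) and Cux2 (8.01 and 4.26, 4.69 and 5.93) were. The markers of oligodendrocytes, microglia, endothelial and mural cells, and liver and muscle had 0 of 8 each. The astrocyte list had 1 of 8, the glutamate transporter gene Slc1a3, which radial glia also express, with a region 6.48 kb outside (14.9 and 3.82). The ubiquitous genes had 0 of 14, although 8 of the 14 had some basal ganglia region.

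Since most of the 615 lay outside protein-coding genes, the genes on either side of those 372 were listed as well. They were 601 genes (2.78% of all). Of the 36 GABAergic lineage factors 13 were among them, including Nkx2-1, Sp8, Isl1, Meis1, Meis2, Maf, Nr2f1, Zeb2, Zfhx3, Zfhx4, Tshz1 and Six3. For the basal ganglia-only regions the same counts were 32 of 36 and 15% of all genes, and for regions shared with the P3 bulb as well 7 of 36 and 1.21%. The factor nearest by distance after Meis2 was Six3, with a region 50.6 kb away (4.10 and 3.77) and another at 151 kb. Nkx2-1, the factor that specifies the medial ganglionic eminence, was 72.9 kb from a region with 12.5 and 4.95. Isl1, a LIM homeobox gene of striatal neurons, had 2 regions at 386 and 286 kb (11.9 and 4.46, 8.79 and 7.05). A gene beside a large stretch without genes flanks more regions, and no region was linked to the gene beside it here. Markers of other cell types stood beside such regions too: Ptprc, a leukocyte gene, and Cdh5, an endothelial cadherin gene, flanked 3 each.

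Sox2, a factor gene of neural progenitors, flanked 4 regions, which lay at 146 kb (19.8 in the basal ganglia and 3.90 in the bulb), 397 kb (5.44 and 4.95), 753 kb (11.3 and 5.52) and 812 kb (16.6 and 5.72). Sox11, a relative of Sox4, was 404 kb from one of the strongest basal ganglia regions. In the bulb interneuron list Pax6, the paired-box gene of dopaminergic bulb neurons, was 152 kb from a region with 19.7 and 5.93. In the cortical subtype list Cck was 54.7 kb from one with 13.9 and 5.93 and Sst 229 kb from one with 4.30 and 5.52. Drd1, the dopamine receptor gene of striatal neurons, flanked 3, all between it and Msx2, at 171, 464 and 578 kb, the last being the Msx2 promoter region.

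Most of the regions had no other of the 615 within 50 kb. The median distance from a summit to the next of the 615 was 940 kb, 62 of them had another within 50 kb and 28 within 10 kb. The spacing was not set against another group of regions or a random placement, so whether the regions cluster was not tested. Of the 264 genes, 229 had 1 region, 35 had 2 or more and 4 had 3 or more. Cdk14, a cyclin-dependent kinase gene, held 4 along its 577 kb, with 16.7, 8.79, 14.5 and 12.9 in the basal ganglia and 3.77, 4.59, 6.98 and 7.81 in the bulb. Lsamp held 4 along its 2197 kb, with 7.84, 7.84, 4.93 and 11.5 in the basal ganglia and 4.28, 5.55, 5.91 and 4.30 in the bulb. Auts2, a gene of neurodevelopmental disorders, held 3, with 9.98, 2.93 and 12.5 in the basal ganglia and 4.91, 4.05 and 4.86 in the bulb, the second of these having the lowest basal ganglia −log10 q of all 615 (2.10). Tenm3, a teneurin adhesion gene, held 3, with 6.45, 6.42 and 5.28 and with 3.94, 4.09 and 5.33. The basal ganglia and bulb summits of these 14 regions were 6 to 243 bp apart.

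**Figure D4:**
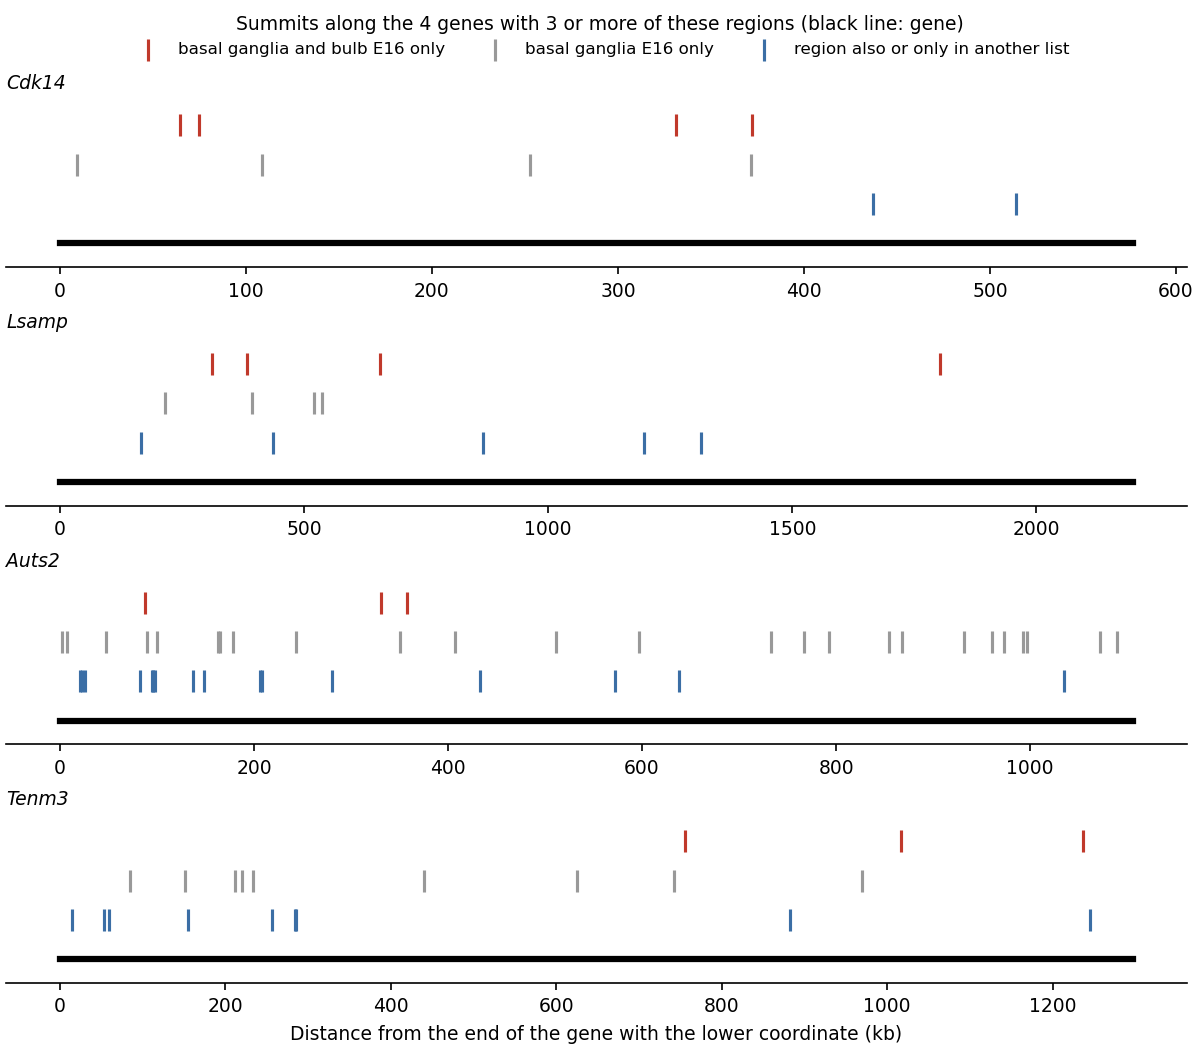
Dlx2 summits (vertical ticks) along Cdk14, Lsamp, Auts2 and Tenm3, plotted as the distance in kb from the end of the gene with the lower coordinate, with the gene as a black line. Red ticks are the regions in the E16 basal ganglia and bulb only, grey ticks those of the basal ganglia alone and blue ticks regions also or only in another list. The red ticks are interspersed with regions of other kinds in each gene.

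Many of the genes had further Dlx2 regions. Of the 264 genes, 135 (51.1%, 44.9 to 57.3) had a region of at least 1 of the other 3 lists within 10 kb. This was 65.3% (64.0 to 66.5) for the 5504 other genes at a basal ganglia region and 22.3% for all protein-coding genes. Taken by list, an E16 cortex region was at 79 of the 264 (29.9%, 24.5 to 35.8) against 55.7% (54.4 to 57.02) of the 5504 and 17.2% of all genes. For the P3 bulb the shares were 13.3% (9.41 to 18.0), 5.7% (5.11 to 6.35) and 2.06%. For the P3 cortex they were 26.9% (21.6 to 32.7), 13.4% (12.5 to 14.4) and 6.16%. The intervals did not overlap in any of these 3 lists: the 264 genes had the smaller share for the E16 cortex and the larger for both P3 lists, without a test and with the difference in gene length named above. At Auts2, the count of summits within 10 kb was 41 for basal ganglia, 15 and 6 for cortex and bulb at E16, and 5 and 1 for cortex and bulb at P3. At Unc5c it was 3 for basal ganglia, 2 for the E16 bulb and 0 for the other 3.

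**Figure D5:**
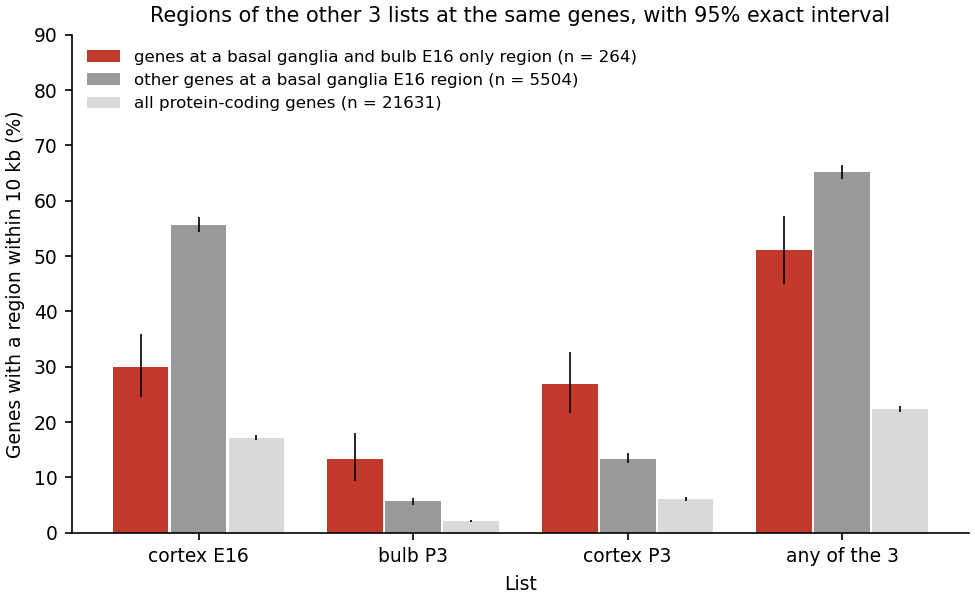
Share of genes (vertical axis, %, bars with 95% exact intervals) with a region of the E16 cortex, P3 bulb or P3 cortex list, or of any of them, in the gene body extended by 10 kb. Red bars are the 264 genes at a region in E16 basal ganglia and bulb only, dark grey the 5504 other genes at a basal ganglia region and light grey all 21631 protein-coding genes; for the E16 cortex the red bar (29.9%) is below the dark grey one (55.7%), and for both P3 lists it is above.

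The 615 regions were on every chromosome searched. Their share of all merged regions ran from 1.84% on chromosome 15 (13 of 706) to 4.81% on chromosome 13 (38 of 790), and chromosome X had 6 of 213.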

How the data were processed

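Dlx2 ChIP-seq regions of 5 mouse libraries were used as deposited, 1 narrowPeak list per library, and the 5 inputs were not analysed here. Trimmomatic, Bowtie2, SAMtools and MACS2, without versions, and build mm10 are named per the submitters' processing notes. Threshold and control of the calls and the read number are not stated in any source used here. In the deposited files the fold enrichment is a ratio at the summit, with −log10 values of p and q beside it. The deposited score column repeats the q-value and was not used. Each list was called by the authors on its own library, so fold values describe regions within a list. Values of both lists were set side by side and rank-correlated as description, and no difference in enrichment between lists is given.

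Regions on chromosomes 1 to 19 and X were merged at an overlap of at least 1 bp (Python 3.11.15, pandas 2.3.3, SciPy 1.17.1), checked on simulated regions. Where a list gave more than 1 region, that of highest −log10 q was used. Summits were set beside RefSeq genes of GRCm38.p6, and shares carry exact Clopper-Pearson 95% intervals. Because no genome was used, motifs were counted in RefSeq promoter windows instead of around summits. The members and the 19 gene lists were chosen with earlier results of these data known. Named genes are those at the 15 regions of lowest summed −log10 q rank, the 5 of highest fold enrichment in each list, genes with at least 3 regions, list genes, and the 3 smallest and largest overlaps. Genes beside regions outside genes were listed after the data were seen. A few items are not reported here.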

Additional observations from a re-analysis of the deposited data

How the results depend on the processing

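The number of regions was 615 and stayed between 556 and 610 when the overlap had to cover 50% of the shorter region, when other lists had to be at least 500 bp away, with −log10 q of at least 5 in every list, or without regions wider than 1 kb. With only as many of the strongest regions of each list as the shortest list holds, it was 89. Against protein-coding genes alone the summits were 3.25% within 1 kb of a gene end, 38.9% elsewhere in a gene and 57.9% outside. Against all annotated genes these shares were 8.13%, 45.9% and 46.02%, and with an end widened to 5 kb they were 22.9%, 38.2% and 38.9%. Genes with a region numbered 465 with bodies extended by 50 kb and 208 with bodies alone. Alternatives chosen after seeing the data gave a median bulb fold enrichment of 5.32 and a median spacing of 1319 kb where both regions had −log10 q of at least 5 (521 regions), and a median basal ganglia fold enrichment of 6.97 without regions wider than 1 kb. The cause of these shifts was not tested, beyond fewer regions or a wider window by construction. In all, 22 recomputed values were classed as the same as the reported ones, but not all of them were close. Among these were 208 genes with bodies alone against 264, and TAATT in 33.3% of promoter windows by bulb summit against 40%. Beside those given above, the class also held the summit distance (40 to 42.5 bp), the rank correlation and the number of list genes (28 to 37, against 33). Motif windows of 50 bp around summits were not run, for want of a genome. No paired analysis was possible because each group has 1 library. Read depth limits every absence.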
